A study of Vitis rotundifolia with 36 samples.

Results

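Gene expression in the innermost dissected layer of the mature berry was compared between Granny Val and Supreme, a pair of cultivars of muscadine grape (Vitis rotundifolia). The 6 libraries were taken by their sample titles, 3 of Granny Val layer 4 and 3 of Supreme layer 4, from 36 in the series. The series holds messenger RNA of 3 cultivars, each dissected into 4 layers numbered from the outside inwards, with 3 libraries per combination. Granny Val bears green berries with skin described as intermediate in thickness, Supreme bears purple berries with thin skin, and the third cultivar, Alachua, bears purple berries with thick skin. All berries were mature and came from 1 research vineyard, and the study asked about skin thickness, fruit firmness and the slipping of the skin. The protocol names the fourth tissue as endocarp, but the tag of these 6 samples reads seed and their source reads peel, so the tissue is called layer 4 here. Whether the replicates came from separate vines, berries or extractions is not stated, and p-values reflect the spread among the libraries at hand, part of which may be technical.

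In a grape berry the wall of the fruit runs from the waxy epidermis through the hypodermis and the fleshy mesocarp to the endocarp, the thin inner wall that faces the seeds. Purple colour comes from anthocyanins, pigments held mainly in the cells of the skin, which green cultivars largely lack. The inner tissues store sugars and organic acids, and the breakdown of their cell walls accompanies softening. If layer 4 is the endocarp that the protocol names, its comparison sets the cultivars against each other in tissue away from the coloured skin.

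Genes appear as gene models, each with an identifier made of a chromosome and a running number. The files do not pair identifiers with names, and 0 of 26394 matched the gene table at hand, so neither products nor markers of seed, pulp or vascular tissue could be read. A pair of gene models in each direction is given by identifier, and the others as groups. Counts of gene models with near-identical copies are uncertain, because reads without a unique alignment were tallied apart and can be missing from them. In layers of whole tissue, fewer cells of a type and less RNA per cell cannot be told apart.

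The 3 Granny Val libraries held 48652698, 41524162 and 52574145 counts in gene models, and the 3 Supreme libraries held 46477642, 61782400 and 53475902, against 19057538 to 61782400 over the series. The floor of a library, 3 counts as the upper limit behind a 0 (95% confidence), lay between 0.0473 and 0.0800 CPM (the usual scaling of a count by the library total, here after TMM correction). Floors and counting intervals cover counting error only. Reads outside any gene model made up 12.14 to 14.56% in Granny Val and 10.21 to 10.62% in Supreme, without overlap, and their part in the results was not tested. The library names are of a pair of kinds, with a leading number in Granny Val replicates 1 and 2 and Supreme replicate 1, and without it in the other 3. Gene models with counts numbered 17956, 15568 and 16083 in the numbered libraries. In the unnumbered ones they numbered 19055, 19090 and 18994, without overlap. The unnumbered libraries also held more counts, and the part of the name kind in these numbers was not tested. As markers could not be used, the label was read by the mean correlation of log2 CPM across gene models with the libraries of each layer of the same cultivar. The libraries of Granny Val layer 4 had 0.801, 0.781 and 0.796 with layer 1, and 0.936, 0.896 and 0.934 with layer 3. Those with the other libraries of layer 4 were 0.923, 0.912 and 0.923. In Supreme they were 0.826, 0.811 and 0.803 with layer 1, 0.934, 0.936 and 0.943 with layer 3, and 0.923, 0.943 and 0.949 within layer 4. Granny Val replicates 1 and 3 and Supreme replicate 1 thus lay nearer to layer 3 than to their own layer. Across cultivars, the unnumbered Granny Val replicate 3 had 0.927 with Supreme layer 4, above the 0.923 with its own group. By this measure layer 4 was set apart from the outermost layer, but not from layer 3.

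Between Granny Val and Supreme, 101 of 19241 gene models tested in layer 4 were called, which is 0.525% of them. Of these, 45 were higher and 56 were lower in Granny Val. Called means an adjusted p under 0.05 by edgeR's quasi-likelihood test with Benjamini-Hochberg adjustment and a change of at least 2-fold. At an unadjusted p under 0.05 there were 2314. Changes of at least 2-fold, whatever the p, were found in 5755 gene models (29.9%), 3166 higher and 2589 lower. The 3 libraries of 1 cultivar lay above the 3 of the other for 3365 gene models (17.5% of those tested), and for 45 of the 45 higher calls and 54 of the 56 lower calls.

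The number of calls depended on single libraries and on the tool. It was 54, 40 and 152 without Granny Val replicates 1, 2 and 3, and 311, 39 and 41 without Supreme replicates 1, 2 and 3. Of the 101 calls, 24 were kept in each of these 6 fits, 9 higher and 15 lower. DESeq2's Wald test called 666, among them 100 of the 101. The numbered libraries of the series alone, with 2 of Granny Val against 1 of Supreme here, gave 12 calls, and the unnumbered ones alone, with 1 against 2, gave 99, of which 11 and 26 were among the 101.

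Most of the calls lay at moderate to high levels on their higher side. Low counts are harder to call, so these levels are given as a description only. On the higher side the median level was 28.2 CPM for the 45 higher calls and 43.6 CPM for the 56 lower calls, beside 10.4 CPM over all gene models tested. Levels under 10 CPM on the higher side were found for 9 higher calls (20%) and 9 lower calls (16.1%), beside 49.4% of all tested. At least 100 CPM was reached by 8 and 18 of the calls. By size, both directions held small and large changes. Changes of 2- to 4-fold made up 16 higher and 20 lower calls, and changes of 4- to 8-fold 8 and 14. At least 8-fold, with more than 3 counts in the lower cultivar, were 10 and 14. In the remaining 11 higher and 8 lower calls the other cultivar had at most 3 counts over its 3 libraries together.

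**Figure D1:**
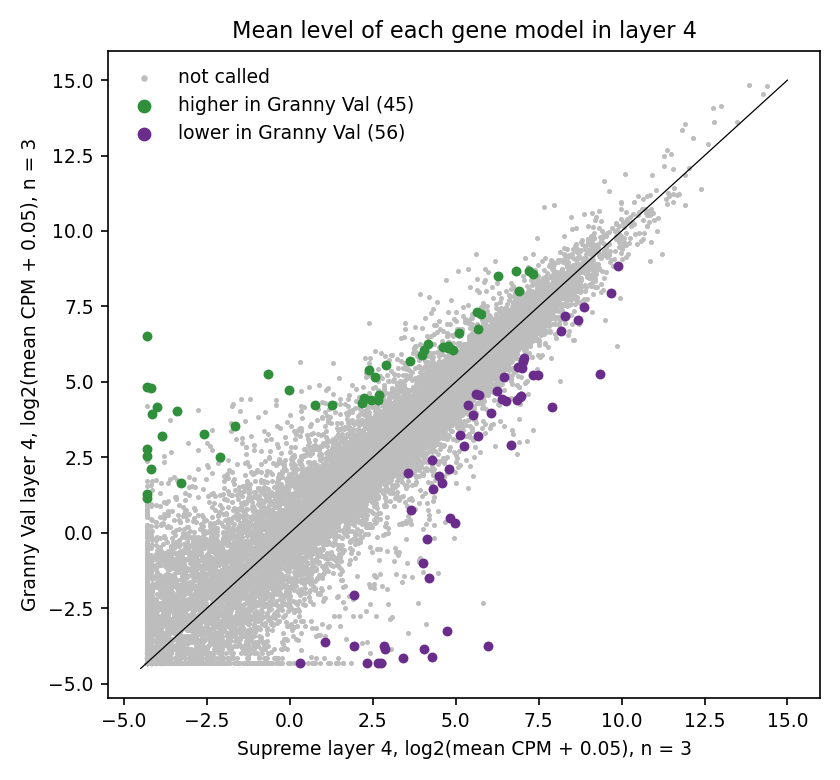
Mean level of each gene model tested in layer 4, as log2 of the mean CPM plus 0.05, in Supreme (x axis, n = 3) and Granny Val (y axis, n = 3), with the line of equal levels. The 45 higher calls are green, the 56 lower calls are purple and the rest are grey; the calls at the left edge and along the bottom are those at or near 0 counts in 1 cultivar.

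Of the 100 most abundant gene models of layer 4, all at 967.7 CPM or more on average over the 6 libraries, 0 were called by edgeR, which is near the 0.525% called over all gene models and so is no result about abundant ones. Of these 100, 19 had an unadjusted p under 0.05, beside 2314 of the 19241 tested, and 22 differed by at least 2-fold, beside 29.9% of all tested. DESeq2 called 8. Their median size of change was 0.49 on the log2 scale, beside 0.54 over all gene models tested. Together they took 35.2, 33.6 and 29.5% of the counts of the Granny Val libraries and 29.6, 25.1 and 26.9% of those of the Supreme libraries. The lowest Granny Val share lay under the highest Supreme share, so these shares overlapped.

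In each direction, 2 gene models were named by the size of the fitted log2 fold change, among calls with at least 10 CPM on the higher side and no overlap between the cultivars. Where 1 cultivar is at or near 0 counts that value depends on the prior count, so the order is a way of choosing and not a ranking of true folds. The first of the higher calls was evm.model.chr7.1374. It stood at 57.8, 107 and 108 CPM in the Granny Val libraries of layer 4 (90.8 ± 28.6, SD, n = 3) and had 0 counts in the 3 Supreme libraries. It was therefore at least 5140-fold higher in Granny Val, taking the floor of 3 counts over the summed Supreme libraries (adjusted p = 1.12e-10, edgeR). The gap was present throughout the berry, with 0 counts in 12 of 12 Supreme libraries. Granny Val had 66.9 ± 5.82 CPM in layer 1, 259 ± 111 in layer 2 and 131 ± 57.7 in layer 3 (SD, n = 3 each). Alachua lay between the pair in layer 4, at 13.1 ± 3.84 CPM (SD, n = 3).

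The other higher call chosen so was evm.model.chr2.1083, with 3.51, 54.9 and 26.2 CPM in Granny Val (28.2 ± 25.7, SD, n = 3) and 0 counts in the Supreme libraries of layer 4. The groups did not overlap, but the Granny Val libraries themselves were far apart. The level was at least 1500-fold higher in Granny Val by the same floor (adjusted p = 0.0311, edgeR). This call was lost without Granny Val replicate 2, Supreme replicate 2 or Supreme replicate 3, with adjusted p over its alternatives from 0.0109 to 0.947. In Granny Val the level was 0.292 ± 0.506 CPM in layer 1, 11.0 ± 8.70 in layer 2 and 8.41 ± 6.73 in layer 3 (SD, n = 3 each), so the highest mean was in layer 4. Over all 12 Supreme libraries it had 1 count, in layer 3, and it had 0 counts in each Alachua library.

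Of the lower calls, the rule gave evm.model.chr16.1891 first. Some lower calls under 10 CPM had larger fitted changes. Its level was 7.47, 103 and 76.7 CPM in Supreme (62.5 ± 49.5, SD, n = 3), against 4 counts in all in Granny Val, all of them in replicate 3. Supreme replicate 1 was the lowest of its group and still far above each Granny Val library. The log2 fold change was -11.00 (SE 2.27, adjusted p = 0.019, edgeR), and it was -14.51 without Granny Val replicate 3, the library with the 4 counts. The call was lost without Granny Val replicate 1, Granny Val replicate 2 or Supreme replicate 2, with adjusted p over its alternatives from 4.93e-07 to 0.403. In layers 1, 2 and 3 it was not called. There Granny Val averaged 0.653, 0.342 and 1.68 CPM, and Supreme 25.0, 20.95 and 21.7 CPM, and the interaction of layer 4 against these layers had an adjusted p of 1 (edgeR). Alachua had 0 counts in its layer 4 libraries.

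The other, evm.model.chr17.377, was steadier, with 25.0, 19.1 and 14.0 CPM in Supreme (19.3 ± 5.49, SD, n = 3). Granny Val had 1 count over its 3 libraries. The ratio of Supreme to Granny Val was 2590, and its 95% interval from counting ran from 465 to 102000. The adjusted p was 3.75e-06 (edgeR). The level in Supreme varied little from layer to layer, at 19.4 ± 8.68, 18.9 ± 5.07 and 19.1 ± 2.35 CPM in layers 1, 2 and 3 (SD, n = 3 each). It was called lower in Granny Val in all 4 layers. Alachua layer 4 had 12.0 ± 0.949 CPM (SD, n = 3). The calls of evm.model.chr7.1374 and evm.model.chr17.377 were kept under all 19 alternative settings.

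**Figure D2:**
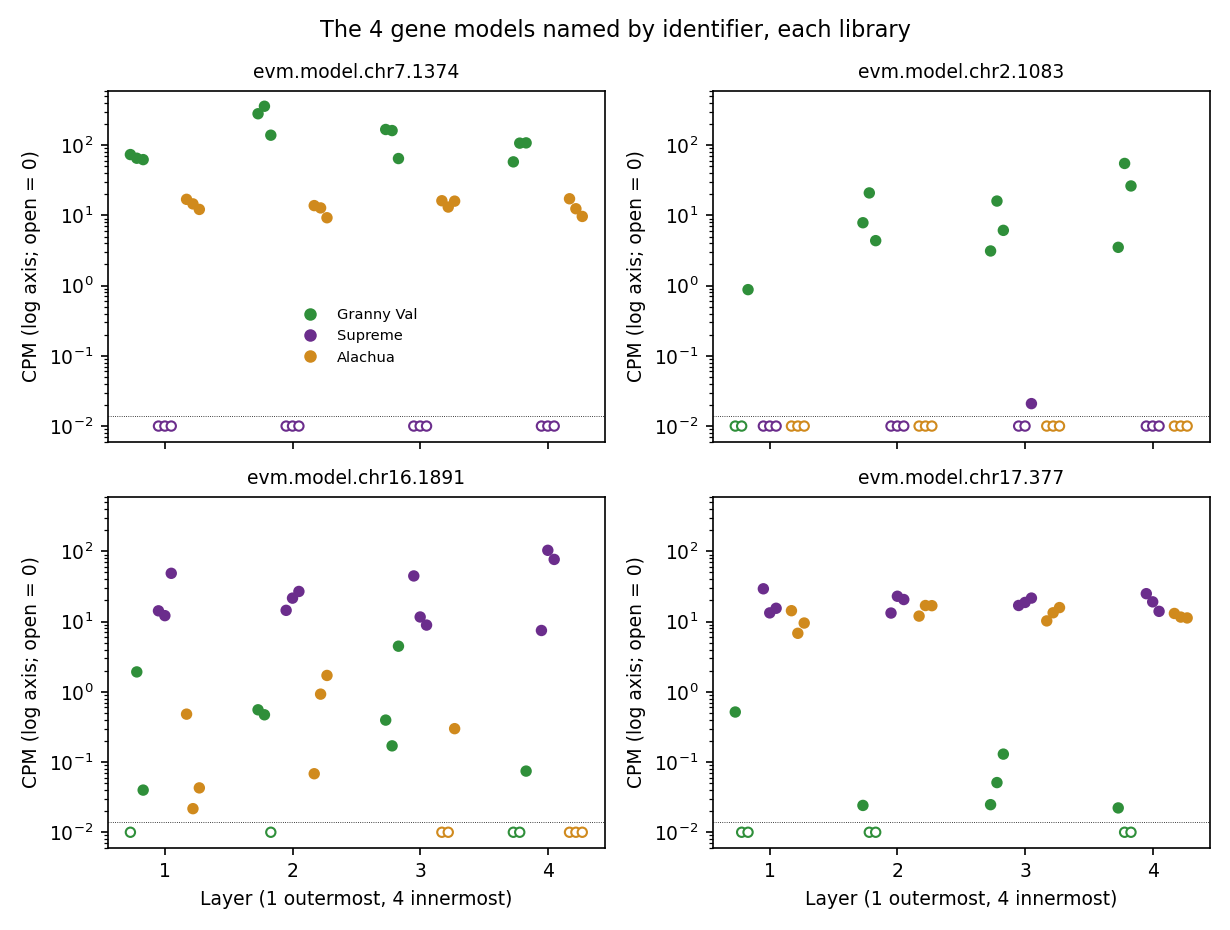
CPM on a log axis of the 4 gene models named by identifier, 2 higher and 2 lower in Granny Val in layer 4, for each library of Granny Val, Supreme and Alachua by layer (x axis); open points below the dotted line are libraries with 0 counts. In layer 4 each library of the higher cultivar lies above each library of the lower one. The same holds in each other layer, except for evm.model.chr2.1083 in layer 1.

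The most abundant calls without overlap between the cultivars were much smaller in size. The higher one, a gene model of chromosome 8, stood at 369, 462 and 405 CPM in Granny Val (412 ± 46.7, SD, n = 3) and at 152, 149 and 143 CPM in Supreme (148 ± 4.27). The lowest Granny Val library was well above the highest Supreme library, and the log2 fold change was 1.475 (SE 0.347, adjusted p = 0.0415, edgeR). The mean of Alachua layer 4 lay between them at 297 ± 76.0 CPM (SD, n = 3). The log2 fold change was 1.384 to 1.537 when 1 of the 6 libraries was left out, but the adjusted p then missed the threshold each time, with adjusted p from 0.00203 to 0.403 over all 19 alternatives.

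The lower one, a gene model of chromosome 5, had 272, 244 and 229 CPM in Granny Val (249 ± 21.9, SD, n = 3) and 1011, 525.5 and 911.5 CPM in Supreme (816 ± 257). A lower call of the same chromosome with a higher mean in Supreme, 956.5 CPM, was passed over because its libraries overlapped. Here they did not, with Supreme replicate 2 the nearest to Granny Val. The log2 fold change was -1.715 (SE 0.358, adjusted p = 0.019, edgeR). It was also called lower in Granny Val in layers 1 and 3, where Supreme had 573 ± 197 and 779 ± 96.9 CPM and Granny Val 131 ± 24.4 and 260 ± 55.1 (SD, n = 3 each). In layer 2, at 591 ± 269 against 236 ± 113 CPM, its adjusted p was 0.108. Leaving out Supreme replicate 3 or any Granny Val library removed the layer 4 call, with adjusted p over its alternatives from 0.00014 to 0.179.

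Presence in 1 cultivar alone was counted apart from any test, as at least 1 CPM in each of 3 libraries of layer 4 against 0 counts in the 3 of the other cultivar. There were 9 such gene models in Granny Val and 12 in Supreme. Their mean levels ran from 1.43 to 90.8 CPM in Granny Val, with a median of 5.81, and from 1.40 to 6.61 CPM in Supreme, with a median of 2.83. Of the 9, 6 were called in layer 4, and of the 12, 3 were. The 0 counts extended to the whole berry for 6 of the 9, with 0 in 12 of 12 Supreme libraries. For 5 of the 12 they extended to 12 of 12 Granny Val libraries. A 0 means that no read was counted in the gene model, and the reason for it was not tested. The cultivar at 1 CPM or more had counts in all of its 12 libraries for 4 of the 9 and 6 of the 12. In Alachua layer 4, 4 of the 9 Granny Val models reached 1 CPM in each of 3 libraries and 3 had 0 counts, while the same numbers for the 12 Supreme models were 2 and 5. With 5 CPM as the level of presence, 2 and 2 were left, and with 0.5 CPM there were 17 and 18.

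The same contrast of cultivars was read in the other layers, which share no library with layer 4. The spread of each gene model was, however, estimated over all 36 libraries together. Layers of a cultivar with the same replicate number may come from the same berries, which is not stated. No term for such a link was fitted, so the layers are not known to be independent, in the shared calls or in the interaction. In layer 3 there were 66 calls (0.343% of those tested), in layer 2 there were 71 (0.369%) and in layer 1 there were 216 (1.12%). Of the 101 layer 4 calls, 44 were also called in the same direction in layer 3, which is 43.6% of the layer 4 list and 66.7% of the layer 3 list. In layer 2 the number was 35, or 34.7% and 49.3% of the lists. In layer 1 it was 43, or 42.6% and 19.9%. The number called in the opposite direction was 0 in each of these layers. The sign was the same for 101, 98 and 94 of the 101 in layers 3, 2 and 1, and with an unadjusted p under 0.05 as well for 91, 76 and 70. Over all 19241 gene models tested, 1410, 2105 and 2758 had an unadjusted p under 0.05 in these layers, whatever the sign (edgeR). How often the sign was shared over all gene models was not counted.

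The median log2 fold change of the higher calls was 2.62 in layer 4, where they were chosen, and 2.04, 1.61 and 1.20 in layers 3, 2 and 1. For the lower calls it was -2.48 in layer 4, and -1.85, -1.58 and -1.65 in layers 3, 2 and 1. Of the 101, 25 were called in all 4 layers, 15 in layer 4 and 2 others, 17 in layer 4 and 1 other, and 44 in layer 4 alone. The near-absent transcripts made up much of the first group. Of the 19 calls with at most 3 counts in the other cultivar, 16 were called in all 4 layers and 1 in layer 4 alone. The 44 had a median size of change of 2.02 on the log2 scale, and 36 of them kept the sign in each of the other layers. The other 57 had a median of 4.39.

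**Figure D3:**
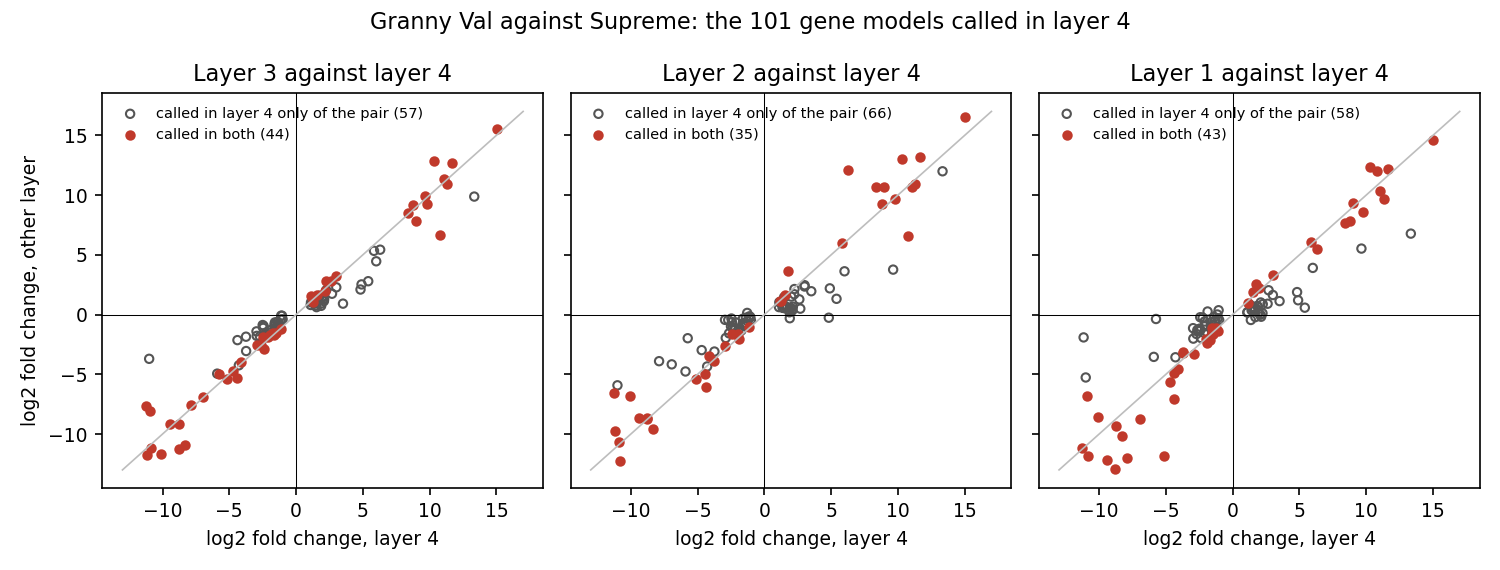
Log2 fold change of Granny Val against Supreme in layer 3, 2 or 1 (y axis) against that in layer 4 (x axis) for the 101 gene models called in layer 4, with the line of equal change. Filled points were called in both layers of the panel (44, 35 and 43) and open points in layer 4 only; the sign differs for 0, 3 and 7 gene models.

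Calls made in layer 4 alone do not show that the cultivars differed more there. The difference itself was tested as an interaction in the 36-library model. Against the layer 3 difference, 0 gene models were called by edgeR (0%), 360 had an unadjusted p under 0.05 and DESeq2 called 122. Against the mean difference of layers 1 to 3, 0 were called (0%), 862 had an unadjusted p under 0.05 and DESeq2 called 134. The smallest adjusted p was 0.9999 and 0.4896 in edgeR. In 6 higher and 4 lower calls the other cultivar had 0 counts in layer 4. For these, edgeR's test against layers 1 to 3 gave unadjusted p-values at or near the maximum. This held even for evm.model.chr2.1083, whose interaction was 3.797 on the log2 scale. For such gene models this test thus could not decide whether the difference depended on the layer.

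An earlier analysis of these data scored the libraries of Alachua and Supreme against Granny Val, with layers 3 and 4 scored as 1 class, so that an exchange between these 2 could not show. By these scores 6 libraries lay nearest another layer than their label, none of them among the Supreme libraries of layer 4 but including Alachua layer 4 replicates 2 and 3. Without them, the layer 4 calls numbered 220, 118 higher and 102 lower, and included all 101. The interaction against layers 1 to 3 then gave 1 call, evm.model.chr20.527, named after its values were seen. In Granny Val it had 14.6 ± 8.05, 45.3 ± 3.91, 32.4 ± 11.5 and 27.5 ± 14.9 CPM in layers 1 to 4 (SD, n = 3 each). In Supreme it had 0.39 ± 0.374 and 0.874 ± 0.767 CPM in layers 1 and 2, but 28.7 ± 4.2 and 22.4 ± 9.68 in layers 3 and 4. The layer 4 libraries of the cultivars overlapped, at 41.8, 28.5 and 12.1 CPM against 30.2, 11.6 and 25.5. The interaction was -3.61 on the log2 scale in edgeR without the 6 libraries (adjusted p = 0.0102). With all 36 libraries edgeR did not call it, and DESeq2 gave an adjusted p of 0.0031. The levels given here for it are also from all 36 libraries.

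The layer at which each call peaked was read within the cultivar that had more of it, as a description, since the calls were chosen in layer 4. Of the 45 higher calls, Granny Val had its highest mean in layers 1 to 4 for 14, 13, 3 and 15. Over all gene models tested the shares by layer in Granny Val were 33.7, 20.7, 20.8 and 24.8%, and those of the calls were 31.1, 28.9, 6.67 and 33.3%. Of the 56 lower calls, Supreme had its highest mean in layers 1 to 4 for 11, 17, 4 and 24, or 19.6, 30.4, 7.14 and 42.9%, beside 30.4, 19.5, 21.1 and 29% of all tested. Both directions thus held few gene models that peaked in layer 3.

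The calls were spread over 19 of the 20 chromosomes named in the identifiers. The share of tested gene models called was highest on chromosome 9, at 1.29% (10 calls, 2 higher and 8 lower), and on chromosome 2, at 1.14% (10 calls, 8 higher and 2 lower). Chromosome 16 followed at 1.05% and chromosome 3 at 0.974%, each with 2 higher and 6 lower. Chromosome 11 had 0 calls of 845 tested, and chromosomes 4 and 13 had 1 each, 0.0898 and 0.0945%. Calls of the same direction lay within 10 running numbers of each other in 8 places, each a pair, 6 of them higher in Granny Val and 2 lower. One pair was evm.model.chr2.1083 and the gene model numbered next to it. These places held 16 of the 101 calls. How many such places would arise if calls were scattered over the tested gene models was not counted. Neighbours of opposite direction, such as numbers 89 and 90 on chromosome 12, were left out.

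**Figure D4:**
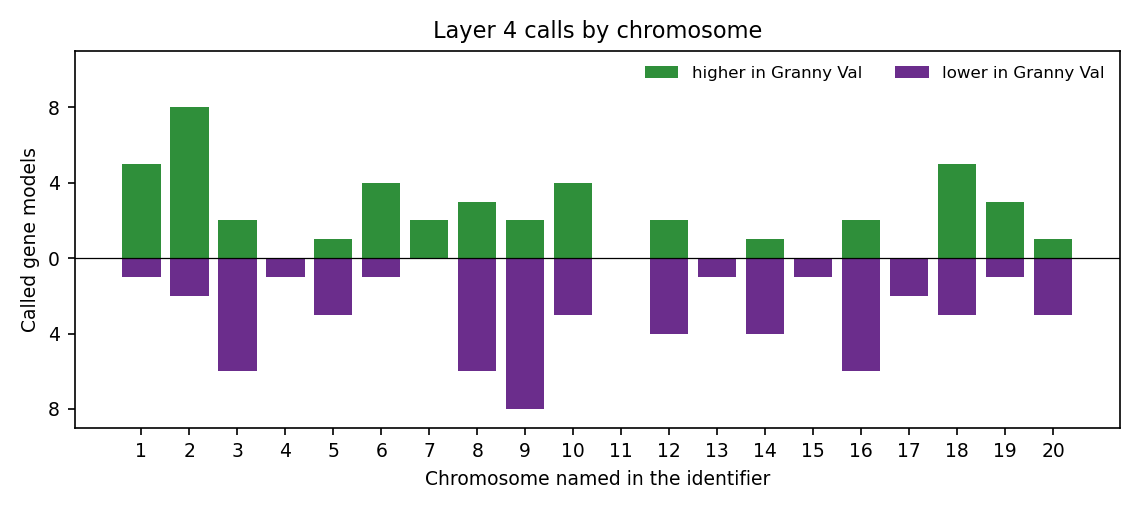
Number of gene models called in layer 4 on each chromosome named in the identifiers (x axis), with those higher in Granny Val drawn above 0 and those lower drawn below it. Chromosome 2 has 8 higher and 2 lower, chromosome 9 has 2 higher and 8 lower, and chromosome 11 has 0.

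Many of the calls kept under other settings had a cultivar at or near 0. Of the 24 kept whichever of the 6 libraries was left out, 13 had at most 3 counts in the lower cultivar, 16 were called in all 4 layers, 7 were under 8-fold and 1 was called in layer 4 alone. Among all 101 these numbers were 19, 25, 58 and 44. Under each of the 19 alternative settings 4 calls were kept, 2 higher and 2 lower, and all 4 had at most 3 counts in the lower cultivar.

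**Figure D5:**
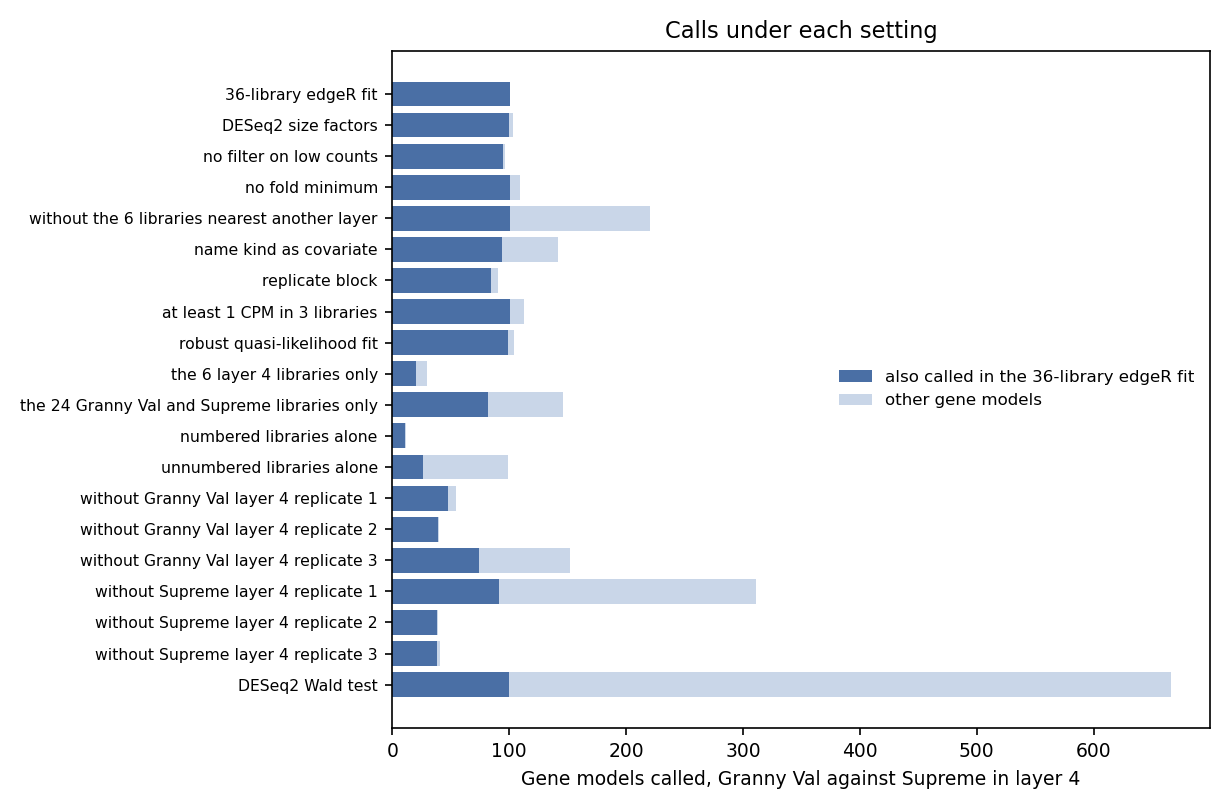
Number of gene models called in layer 4 (x axis) under the 36-library edgeR fit and each of 19 alternative settings (y axis), with the part also called in the 36-library fit in dark blue and the rest in light blue. The count runs from 12 in the numbered libraries alone to 666 with DESeq2, and from 39 to 311 when 1 of the 6 libraries is left out.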

How the data were processed

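Polyadenylated RNA was made into directional libraries, per the labels' protocols, and the authors deposited a table of whole-number counts for each library. The tools named in the submitters' processing notes, with no role or order, are HTSeq 0.11.2, STAR, cutadapt, DESeq2 and SAMtools. Neither the genome build nor the strand setting is given in the sources used here, and reads of overlapping genes on opposite strands may have been counted together. The 5 special lines of each table were left out of totals and tests, and 22565 of the 26394 gene models had counts.

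From the deposited counts, CPM and log2 fold changes were calculated in R 4.3.3 (edgeR 4.0.16) after TMM scaling and filterByExpr by group, which left 19241 gene models. One quasi-likelihood model with 12 group means was fitted to 36 libraries (24 residual degrees of freedom), and p-values were adjusted over all gene models tested by the Benjamini-Hochberg method. Each SE was calculated as the size of the log2 fold change over the square root of the test's F statistic. Near 0 counts it therefore shares the dependence of the fold change on the prior count. Correlations were taken on log2 CPM, adding a prior count of 2. Folds against 0 counts are bounds against 3 counts over the summed libraries, and ratios against 1 to 3 counts have 95% intervals. Within Granny Val layer 4 and within Supreme layer 4 no libraries were duplicates: pairs differed by 311.6 to 538 times the sampling variance. Other pairs of libraries were not checked. The code was tested on simulated data.

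The gene models and settings were chosen with earlier results of these data known. Gene models are named as the 2 largest fitted log2 fold changes in each direction among calls of at least 10 CPM on the higher side without overlap between cultivars; the most abundant call in each direction under the same rule is given by chromosome only. Alternatives were other scaling, filters, a robust fit, no fold minimum, fewer libraries, the kind of library name, a replicate block, each library left out, and DESeq2 1.42.0, whose use beyond layer 4 was added after seeing the data.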

Additional observations from a re-analysis of the deposited data

How the results depend on the processing

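The 101 layer 4 calls numbered 90 to 146 under several of the 19 alternatives. There were 103 with DESeq2 size factors, 96 with no filter, 109 with no fold minimum and 113 with at least 1 CPM in 3 libraries. A robust fit gave 104, the 24 Granny Val and Supreme libraries 146 (82 shared), name kind as a covariate 142 (94 shared) and a replicate block 90. They numbered 220 without the 6 libraries nearest another layer, 30 with the 6 libraries alone (20 shared), 12 in the numbered libraries alone, 666 with DESeq2 and 39 to 311 leaving out 1 library. Deviations of libraries with the same replicate number correlated at 0.188, 0.0738 and 0.356, and those with different ones at -0.31 to 0.111. Sorted by the kind of library name, pairs of the same kind had 0.101 to 0.356. Pairs of unlike kind had -0.31 to 0.0738, without overlap. Whether replicate numbers pair the samples, or the name kind lies behind these values, was not tested. The replicate block kept 84 of the 101. Without the 6 libraries layer 3 had 142 calls, and the interaction against layers 1 to 3 had 1. The name covariate gave 133, 113 and 363 calls in layers 3, 2 and 1, and DESeq2 gave 382, 524 and 754, and 122 and 134 for the interactions. The causes were not tested. Models present in 1 cultivar numbered 19 and 18 with up to 3 counts allowed in the other. No named fold change reversed under the 19 alternatives. Differences between levels under the floors of 0.0473 to 0.0800 CPM were not detectable at this depth.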
